A study of Danio rerio with 12 samples.

Results

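Translation initiation factors load the initiator tRNA and the messenger RNA onto the small ribosomal subunit and set the start codon. The genes described here are the protein-coding rows of the deposited expression table whose symbol begins with EIF and a digit from 1 to 6, leaving out the eIF2 kinases and eIF2 alpha and keeping the eIF4E binding proteins. There are 60 such genes among 35004 in the table, of which 25432 are protein coding. Zebrafish-style names are used below, taken from the gene descriptions in the table where its symbol was a human one or was shared by paralogs.

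RNA came from whole zebrafish larvae (Danio rerio) at 3 days after fertilization that spent 8 hours in normoxia or hypoxia. The genotypes were wild type and gcn2 knockout, and each of the 4 groups held 3 libraries stated to be biological replicates. The oxygen level, the allele and the number of larvae pooled for a library are not given in the sources used here. The title of the series names anemia and intolerance of hypoxia in Gcn2 deficiency as its subject. The gene eif2ak4 encodes Gcn2, which senses uncharged tRNA and phosphorylates eIF2 alpha.

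As background, eIF2 carries the initiator tRNA and eIF2B recharges eIF2 with GTP after each round. eIF3 is a large scaffold on the small subunit. The cap of the messenger is bound by eIF4E, which is held by the scaffold eIF4G together with the helicase eIF4A in the complex eIF4F. The eIF4E binding proteins compete with eIF4G for eIF4E, and the kinase mTORC1 releases that block by phosphorylating them. Low oxygen is known in vertebrate cells to lower mTORC1 activity.

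The libraries held 15668848 to 16841145 reads recovered from the table, and the 60 genes took 0.810% to 0.858% of them. The eif2ak4 transcript lay at 1.52 to 1.95 FPKM (fragments per kilobase of transcript, scaled to library depth) in the 6 knockout libraries and at 3.63 to 4.25 FPKM in the 6 wild-type libraries. The hypoxia marker egln3, which encodes a HIF prolyl hydroxylase, lay at 1.84 to 2.71 FPKM in normoxia and at 30.3 to 47.5 FPKM in hypoxia. Of the markers matched in the table for 8 tissue and cell state lists, 0 were at 0 in every library. Replicates of wild-type hypoxia were the most spread out, with a pairwise variance of 5.72 to 6.31 times counting error against 2.23 to 3.93 times in the other groups. In such bulk samples, fewer cells of a type and less RNA per cell cannot be told apart.

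Of the 60 genes, 59 were measured at 1 FPKM or more in at least 3 libraries and were tested. The exception was eif4e1b, an eIF4E paralog, which reached at most 0.0410 FPKM in a library. Mean levels of the 59, which are per length and so comparable between genes, ran from 1.49 FPKM for eif3bb to 391 FPKM for eif5a, with a median of 33.0 FPKM. The genes lie on 20 chromosomes. The median of their coefficients of variation within groups was 4.52%.

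In hypoxia, 41 of the 59 genes changed in wild-type larvae (limma, adjusted p under 0.05), where 36% of all 21480 tested genes did. Of these, 18 rose (16.8% of all genes) and 23 fell (19.2%). In the knockout 39 of 59 changed, against 44% of all genes, with 20 rising (21.8% of all genes) and 19 falling (22.2%). Among genes with at least 5 FPKM in 3 libraries, a level that most of these factors reach, 49% of all genes changed in wild type and 57.9% in the knockout. Most of the changes were small: 32 of the 41 and 29 of the 39 lay under 0.5 on the log2 scale. The median log2 fold change of the 59 was -0.10 in wild type and 0.01 in the knockout, beside 0.01 and 0.00 for all genes. Scaling moved the balance: with libraries scaled to recovered reads, 11 rose and 28 fell in wild type and 16 rose and 28 fell in the knockout. The balance of all genes moved too. In wild type, rises made up 3598 of 7723 calls as deposited and 2686 of 7893 with that scaling. In the knockout they made up 4684 of 9451 and 3039 of 10008. The 18 rises in wild type became 11 without wild-type normoxia replicate 1 or 2. A fold change here is the difference of group means of log2(FPKM + 1), a scale that understates the change of weakly expressed genes, and ± after it gives the limma standard error.

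**Figure D1:**
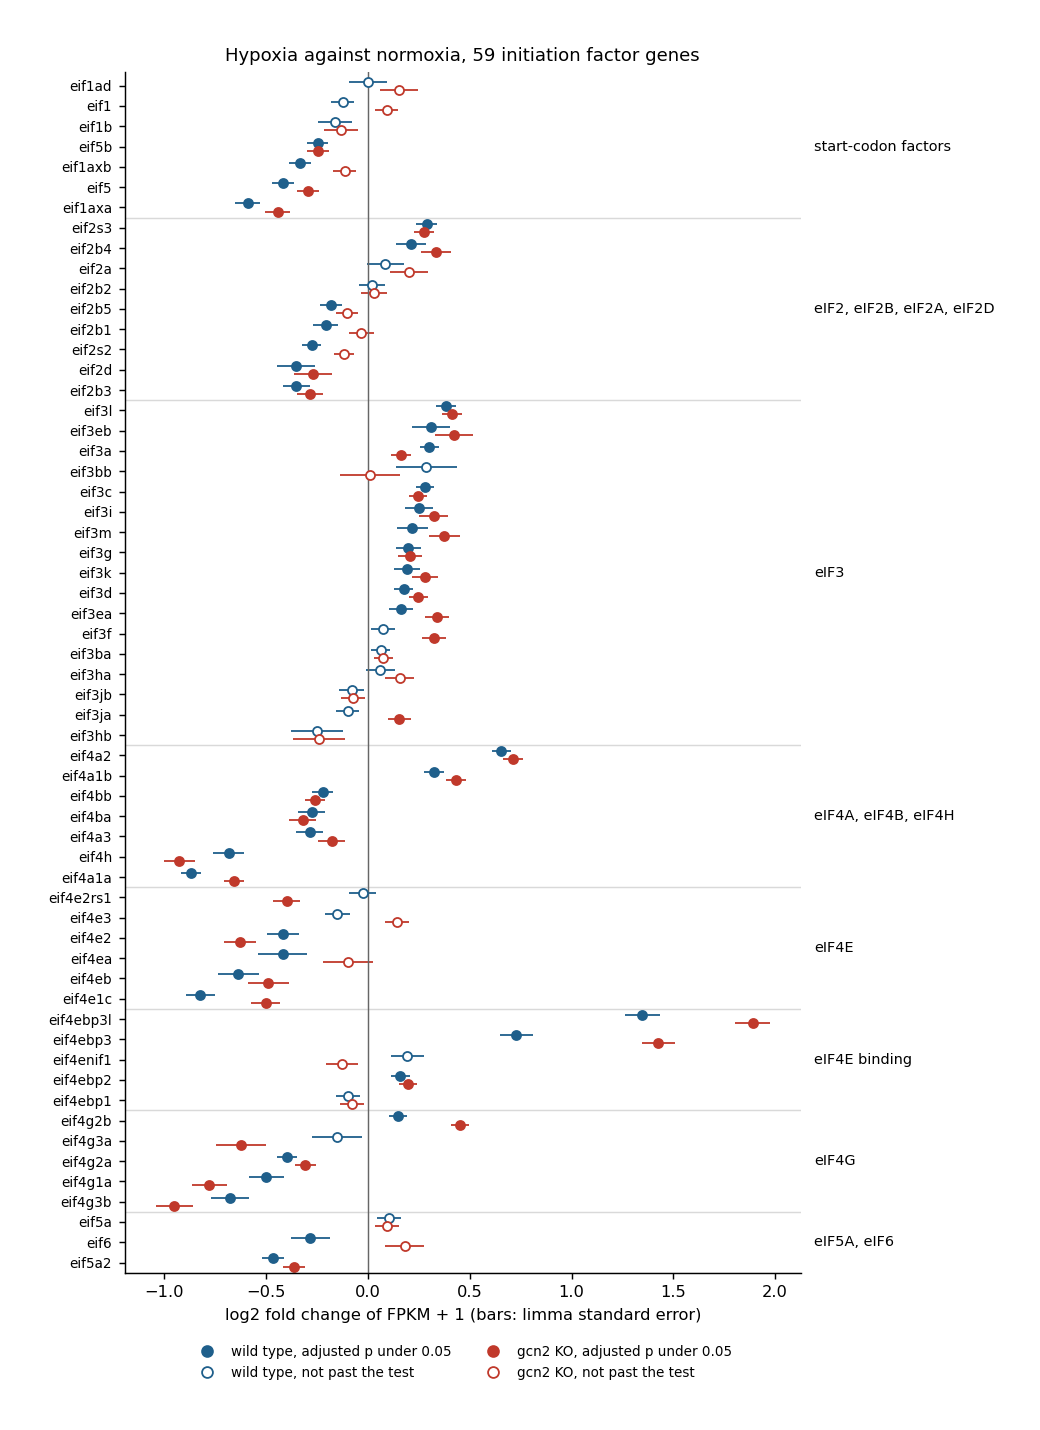
Log2 fold change (hypoxia against normoxia, log2 of FPKM + 1) of 59 initiation factor genes, grouped by role, in wild type (blue) and gcn2 knockout (red). Points are limma estimates, bars are standard errors, and filled points passed adjusted p under 0.05; eif4ebp3l and eif4ebp3 stand farthest to the right and eif4g3b, eif4h and eif4a1a farthest to the left.

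The fold changes of the 2 comparisons share no libraries. Their tests share a common estimate of the spread for each gene, drawn from all 12 libraries, so the shared calls are not independent. All 18 genes that rose in wild type were among the 20 that rose in the knockout. Of the genes that fell, 17 were shared, out of 23 in wild type and 19 in the knockout, and 0 were called in opposite directions. Across the 59 genes Pearson's r between these fold changes was 0.91, and 0.87 over 57 genes without eif4ebp3 and eif4ebp3l. These are correlations across genes, which are not independent replicates. Sharing and correlation over all tested genes were not computed, so neither is shown to be particular to these factors.

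The largest rises in hypoxia were in the eIF4E binding protein genes eif4ebp3l (ENSDARG00000041607, GRCz11 chromosome 14, 6972868 to 6987649, minus strand) and eif4ebp3 (ENSDARG00000054916, chromosome 21, 26401332 to 26406304, minus strand). Their products belong to the family that keeps eIF4E from eIF4G. In normoxia eif4ebp3l measured 28.1, 27.4 and 24.6 FPKM in wild type and 31.2, 30.4 and 32.4 FPKM in the knockout. In hypoxia it measured 73.1, 68.5 and 66.8 FPKM in wild type and 137, 118 and 104 FPKM in the knockout. The 4 groups did not overlap, and the knockout hypoxia libraries were the highest. The log2 fold change was 1.35 ± 0.08 in wild type (limma adjusted p = 2.41e-07) and 1.89 ± 0.08 for the knockout (adjusted p = 9.71e-09).

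The gene eif4ebp3 measured 11.3, 13.4 and 12.0 FPKM in wild-type normoxia and 15.1, 15.7 and 16.1 FPKM in knockout normoxia. In hypoxia it measured 20.6, 20.3 and 22.0 FPKM in wild type and 48.0, 45.2 and 38.3 FPKM in the knockout. Here too the 4 groups did not overlap. It rose by 0.73 ± 0.08 in wild type (limma adjusted p = 2.32e-05) and by 1.43 ± 0.08 in the knockout (adjusted p = 5.88e-08) on the log2 scale.

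The other members of the family behaved differently. The gene eif4ebp1 (chromosome 21, 21013147 to 21020708) measured 60.2, 65.1 and 64.0 FPKM in wild-type normoxia and 53.9 to 63.9 FPKM in wild-type hypoxia, and these groups overlapped. In the knockout they did not, at 48.7 to 49.7 FPKM in normoxia and 45.5 to 47.6 FPKM in hypoxia. Its hypoxic log2 fold change was -0.10 ± 0.06 in wild type (limma adjusted p = 0.217) and -0.08 ± 0.06 for the knockout (adjusted p = 0.306). With scaling to recovered reads and with voom on recovered reads, eif4ebp1 was called lower in both genotypes. In the knockout it was also called lower with TPM scaling. The gene eif4ebp2 (chromosome 13, 30163515 to 30168897) measured 90.7, 83.8 and 88.9 FPKM in wild-type normoxia and 102, 96.0 and 96.3 FPKM in wild-type hypoxia. It passed the limma test, with log2 fold changes of 0.16 ± 0.05 (wild type, adjusted p = 0.0169) and 0.20 ± 0.05 (knockout, adjusted p = 0.00414). With libraries scaled to recovered reads, both calls of eif4ebp2 were lost, at adjusted p = 0.085 and 0.206. The wild-type call was also lost when wild-type normoxia replicate 2 or wild-type hypoxia replicate 1 was left out. In all, the wild-type call was lost under 5 alternatives and the knockout call under 4.

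**Figure D2:**
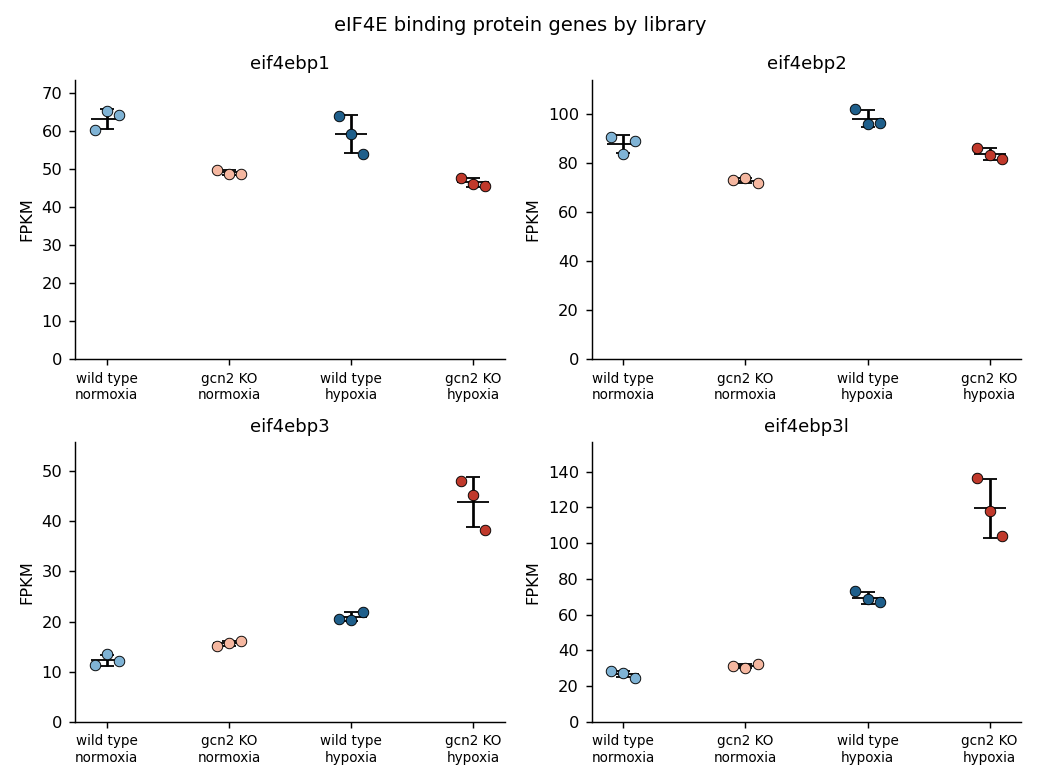
FPKM of the 4 eIF4E binding protein genes in each of 12 libraries; points are libraries, the horizontal line is the group mean and bars are the SD (n = 3). The eif4ebp3 and eif4ebp3l points rise with hypoxia and reach their highest values in knockout hypoxia, while eif4ebp1 and eif4ebp2 lie lower in the knockout at both oxygen levels.

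Most cap-binding eIF4E genes fell. In wild type 4 of 6 fell and 0 rose (5 fell and 0 rose at unadjusted p under 0.05, and likewise by voom on recovered reads). Over all genes 19.2% fell and 16.8% rose there, and by voom 2892 of 8258 called genes rose. In the knockout 4 of 6 fell and 0 rose (unadjusted, 4 fell and 1 rose, and by voom, 4 fell and 0 rose). Over all genes 22.2% fell and 21.8% rose there, and by voom 3082 of 10240 called genes rose. Shares of all genes at unadjusted p under 0.05 were not computed. The largest fall among them in wild type was in eif4e1c (chromosome 13, 18311410 to 18324469), a fish paralog of the canonical cap-binding protein. It measured 24.1, 22.5 and 23.6 FPKM in wild-type normoxia and 12.3, 13.1 and 13.0 FPKM in wild-type hypoxia. The knockout libraries read 21.0, 22.5 and 20.2 FPKM under normoxia, and under hypoxia 15.4, 15.8 and 13.0 FPKM. Normoxia and hypoxia did not overlap in either genotype, and the log2 fold changes were -0.82 ± 0.07 (limma adjusted p = 2.74e-06) and -0.50 ± 0.07 (adjusted p = 0.000103).

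The paralog eif4eb fell by 0.64 ± 0.10 in wild type and by 0.49 ± 0.10 in the knockout. The gene eif4e2, whose human product is a cap-binding repressor of translation that also takes part in translation under hypoxia, fell from 13.8 ± 1.16 to 10.0 ± 0.461 FPKM in wild type (SD, n = 3). It fell from 11.5 ± 1.16 to 7.05 ± 0.383 FPKM in the knockout. The gene eif4ea fell by 0.42 ± 0.12 in wild type (limma adjusted p = 0.0169) but not past the test in the knockout, at -0.10 ± 0.12 (adjusted p = 0.542). Leaving out wild-type normoxia replicate 3 or wild-type hypoxia replicate 2 ended the wild-type call, at adjusted p = 0.0691 and 0.0723. The interaction of genotype and oxygen for eif4ea did not pass (limma adjusted p = 0.25). The related gene eif4e2rs1 fell by 0.40 ± 0.07 in the knockout (adjusted p = 0.000385) and stood at -0.03 ± 0.07 in wild type (adjusted p = 0.798). The atypical cap-binding gene eif4e3 passed in neither genotype, with -0.15 ± 0.06 and 0.14 ± 0.06.

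Summed over the family, the balance of binding protein to eIF4E transcripts shifted. The 7 eIF4E genes together measured 90.5 ± 4.44 FPKM in wild-type normoxia and 65.7 ± 2.02 FPKM in wild-type hypoxia (SD, n = 3). In the knockout they measured 83.8 ± 2.11 and 67.4 ± 5.02 FPKM. The ratio of summed binding protein FPKM to summed eIF4E FPKM was 2.08, 2.21 and 2.01 in wild-type normoxia and 2.07, 1.99 and 1.98 in knockout normoxia. Under hypoxia it was 3.84, 3.83 and 3.63 for wild type, and for the knockout 4.50, 4.18 and 4.37. A ratio within a library does not depend on how libraries are scaled. The hypoxia libraries lay above all normoxia libraries, knockout hypoxia lay above wild-type hypoxia, and the normoxia groups overlapped. Against 4 of the eIF4E genes alone, eif4ea, eif4eb, eif4e1b and eif4e1c, the hypoxia ratios ran from 7.98 to 8.37 for wild type and from 8.03 to 8.99 for the knockout. On that measure the genotypes overlapped in hypoxia, and both lay above the normoxia libraries at 3.58 to 4.06. No test was made on these ratios, whose parts were tested singly.

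**Figure D3:**
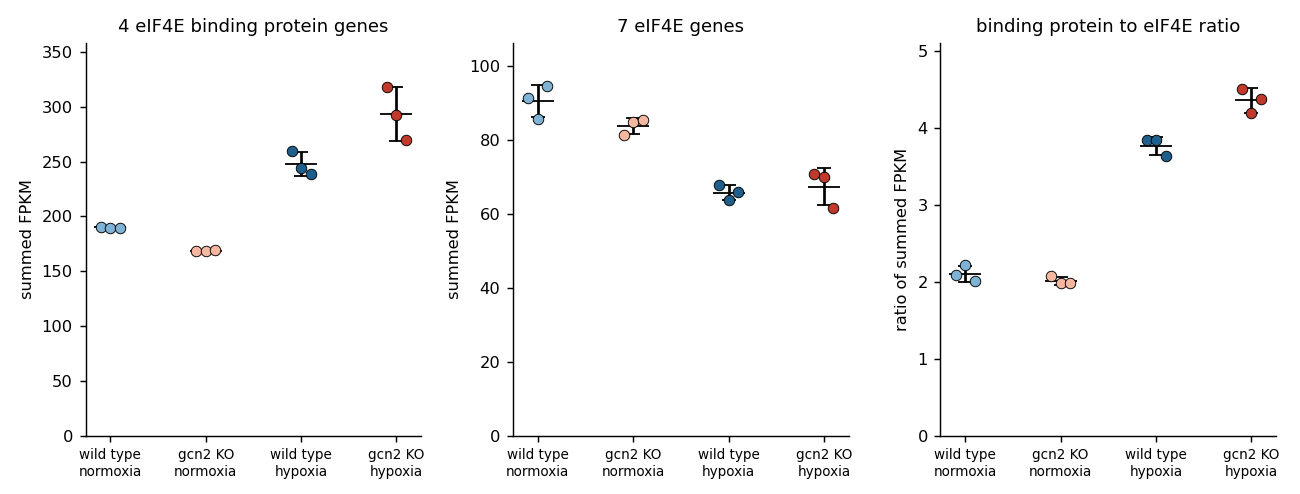
Summed FPKM of the 4 eIF4E binding protein genes, summed FPKM of the 7 eIF4E genes, and the ratio of these sums in each library; points are libraries, lines are group means and bars are the SD (n = 3). The ratio lies between 1.98 and 2.21 in the 6 normoxia libraries, between 3.63 and 3.84 in wild-type hypoxia and between 4.18 and 4.50 in knockout hypoxia.

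The helicase genes of eIF4F split. The gene eif4a1a (ENSDARG00000092115, chromosome 7, 26510827 to 26518086) had the largest fall of any of the 59 genes in wild type. It measured 77.7, 75.9 and 79.6 FPKM in wild-type normoxia and 41.0, 44.0 and 41.2 FPKM in wild-type hypoxia. The knockout libraries read 66.1, 73.3 and 72.1 FPKM under normoxia, and under hypoxia 44.4, 44.0 and 44.3 FPKM. Hypoxia libraries lay below all normoxia libraries, with log2 fold changes of -0.87 ± 0.05 (limma adjusted p = 1.06e-07) and -0.66 ± 0.05 (adjusted p = 6.58e-07).

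Its paralog eif4a1b (ENSDARG00000003032, chromosome 5, 24208413 to 24219344), the most abundant of the eIF4A genes, moved the other way. It measured 235, 219 and 244 FPKM in wild-type normoxia and 304, 285 and 286 FPKM in wild-type hypoxia. The rise was 0.33 ± 0.05 in wild type (limma adjusted p = 0.000296) and 0.43 ± 0.05 for the knockout (adjusted p = 2.32e-05). The gene eif4a2 (chromosome 2, 7715810 to 7727248), which encodes the other eIF4F helicase, measured 29.4, 29.0 and 28.4 FPKM in wild-type normoxia and 47.8, 44.8 and 45.9 FPKM in wild-type hypoxia. It rose by 0.65 ± 0.05 in wild type (adjusted p = 7.75e-07) and by 0.71 ± 0.05 in the knockout (adjusted p = 2.33e-07).

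Within the summed FPKM of these 3 helicase genes, the share of eif4a1a was 22.9% ± 0.479 in wild-type normoxia and 11.1% ± 0.667 in wild-type hypoxia (SD, n = 3). In the knockout it was 22.4% ± 1.22 and 11.5% ± 0.268. The share of eif4a2 was 8.54% ± 0.456 and 12.1% ± 0.155 in wild type. The summed level of the 3 genes was 340 ± 14.6 FPKM in wild-type normoxia and 380 ± 11.1 FPKM in wild-type hypoxia, so the sum stayed high while its makeup changed.

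**Figure D4:**
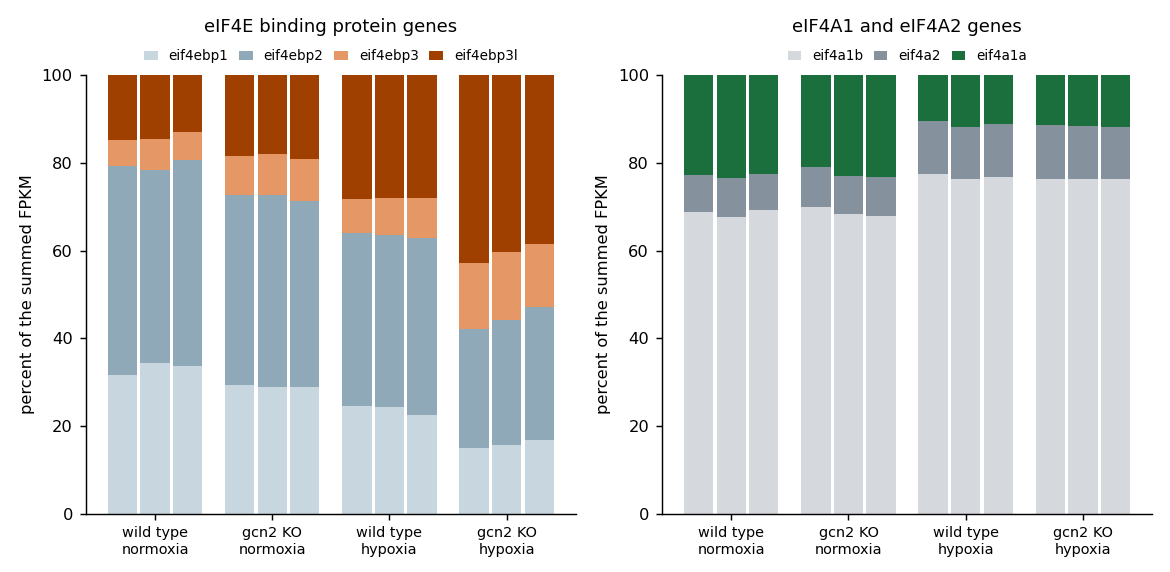
Share (percent) of each gene in the summed FPKM of the 4 eIF4E binding protein genes (left) and of eif4a1a, eif4a1b and eif4a2 (right), with 1 bar for each library. Hypoxia lowers the eif4a1a share from 20.9% to 23.5% in the normoxia libraries to 10.4% to 11.8%, and the eif4ebp3 and eif4ebp3l shares together reach 52.8% to 58.0% in knockout hypoxia.

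The helicase cofactors fell. The gene eif4h, whose product stimulates eIF4A, measured 38.9, 40.2 and 42.0 FPKM in wild-type normoxia and 22.7, 28.8 and 23.1 FPKM in wild-type hypoxia. The knockout libraries read 43.1, 44.9 and 44.4 FPKM under normoxia, and under hypoxia 23.0, 21.8 and 23.3 FPKM. No hypoxia library reached a normoxia library, and the falls were 0.68 ± 0.08 (limma adjusted p = 2.32e-05) and 0.93 ± 0.08 (adjusted p = 1.29e-06). The related cofactor genes eif4ba and eif4bb fell in both genotypes, by 0.22 to 0.32 on the log2 scale. The gene eif4a3, which serves in the exon junction complex rather than in eIF4F, fell by 0.29 ± 0.07 in wild type. In the knockout its fall of 0.18 ± 0.07 (adjusted p = 0.0454) was lost under 12 of the alternatives tried, 10 of them the omission of a single library.

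Among the eIF4G scaffold genes, 3 of 5 fell and 1 rose in wild type, and 4 fell and 1 rose in the knockout. Over all genes 19.2% fell and 16.8% rose in wild type, and 22.2% fell and 21.8% rose in the knockout. The canonical scaffold gene eif4g1a fell from 16.2 ± 0.553 to 11.2 ± 1.70 FPKM in wild type and from 17.1 ± 0.925 to 9.57 ± 0.536 FPKM in the knockout. The gene eif4g3b measured 5.93, 6.00 and 5.77 FPKM in wild-type normoxia and 2.96, 3.89 and 3.14 FPKM in wild-type hypoxia. It fell by 0.68 ± 0.09 in wild type (limma adjusted p = 0.000107) and by 0.95 ± 0.09 in the knockout (adjusted p = 5.01e-06), the largest fall there. Its paralog eif4g3a fell in the knockout, by 0.62 ± 0.12 (adjusted p = 0.00126), and stood at -0.15 ± 0.12 in wild type (adjusted p = 0.368). The wild-type libraries of eif4g3a read 4.10, 6.07 and 4.05 FPKM in hypoxia, against 4.91 to 6.00 FPKM in normoxia. Its interaction of genotype and oxygen did not pass (limma adjusted p = 0.0992).

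The 2 genes for eIF4G2, a scaffold that lacks the eIF4E-binding part and serves cap-independent initiation in mammals, moved apart. The gene eif4g2a measured 48.2, 43.6 and 48.8 FPKM in wild-type normoxia and 35.3, 35.7 and 34.8 FPKM in wild-type hypoxia. The gene eif4g2b measured 53.8, 53.3 and 53.6 FPKM in wild-type normoxia, 61.1, 59.7 and 57.6 FPKM in wild-type hypoxia and 71.3, 66.1 and 67.4 FPKM in knockout hypoxia. The first fell by 0.40 ± 0.05 in wild type and by 0.31 ± 0.05 in the knockout. The second rose by 0.15 ± 0.05 in wild type (limma adjusted p = 0.0221) and by 0.45 ± 0.05 in the knockout (adjusted p = 6.97e-06). Its wild-type rise was lost under 8 alternatives, among them scaling to recovered reads (adjusted p = 0.141). Others were the omission of any 1 wild-type normoxia library or of wild-type hypoxia replicate 1 or 2. The ratio of eif4g2b to eif4g2a, which needs no scaling, was 1.15 ± 0.0674 in wild-type normoxia, 1.68 ± 0.0386 in wild-type hypoxia and 1.99 ± 0.102 in knockout hypoxia.

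The eIF3 scaffold subunits changed little, and mostly upward. As deposited, 10 of 17 rose and 0 fell in wild type, while scaling to recovered reads gave 6 and 1. In the knockout 12 rose and 0 fell, while scaling to recovered reads gave 9 and 2, TPM scaling 6 and 2, and quantile normalization 7 and 1. Over all genes 16.8% rose and 19.2% fell in wild type as deposited, and 21.8% and 22.2% in the knockout. With scaling to recovered reads, 2686 of 7893 called genes rose in wild type and 3039 of 10008 in the knockout. The count of falls at unadjusted p under 0.05 was 0 in both genotypes, and voom on recovered reads gave 0 in wild type and 2 in the knockout. The share of all genes that fell at unadjusted p under 0.05 was not computed. The median log2 fold change of the 17 was 0.19 in wild type and 0.24 in the knockout. Scaling to recovered reads moved the median of all genes to -0.11 in the knockout, and the eIF3 median then stood 0.21 above it. With quantile normalization it stood 0.098 above the median of all genes. The 10 rises in wild type became 6 when the 2 compared groups were fitted alone.

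In wild type the rises of eif3l, eif3c and eif3a held under every alternative tried. The subunit gene eif3l measured 106, 103 and 107 FPKM in wild-type normoxia and 144, 133 and 136 FPKM in wild-type hypoxia. It rose by 0.38 ± 0.05 in wild type (limma adjusted p = 6.66e-05) and by 0.41 ± 0.05 in the knockout (adjusted p = 2.59e-05). The gene eif3c, which encodes a core subunit, rose from 120 ± 1.76 to 146 ± 7.95 FPKM in wild type. The gene of the largest subunit, eif3a, rose from 85.3 ± 2.38 to 105 ± 5.25 FPKM in wild type. Its smaller rise in the knockout, 0.16 ± 0.05, was lost under 5 alternatives, among them scaling to recovered reads (adjusted p = 0.638). The scaffold gene eif3ba did not pass in either genotype (0.06 ± 0.05 and 0.08 ± 0.05). Nor did eif3jb, whose product is a loosely held subunit, at -0.08 ± 0.06 and -0.07 ± 0.06.

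The subunits of eIF2 other than alpha split as well. The gamma subunit gene eif2s3, whose product binds the tRNA and GTP, measured 157, 154 and 158 FPKM in wild-type normoxia and 200, 193 and 181 FPKM in wild-type hypoxia. The beta subunit gene eif2s2 measured 144, 147 and 154 FPKM in wild-type normoxia and 130, 121 and 116 FPKM in wild-type hypoxia. The gamma gene rose by 0.29 ± 0.05 in wild type (limma adjusted p = 0.000817) and by 0.28 ± 0.05 in the knockout (adjusted p = 0.000829). The knockout call was lost with quantile normalization, where eif2s3 stood at 0.07 (adjusted p = 0.222). The beta gene fell by 0.28 ± 0.05 in wild type (adjusted p = 0.000777) and stood at -0.12 ± 0.05 in the knockout (adjusted p = 0.0714). Its interaction of genotype and oxygen did not pass (limma adjusted p = 0.152), so a difference between the genotypes was not shown. The ratio of gamma to beta FPKM within a library was 1.05 ± 0.0302 in wild-type normoxia and 1.56 ± 0.0295 in wild-type hypoxia. In the knockout libraries it ran from 1.04 to 1.13 in normoxia and from 1.35 to 1.52 in hypoxia.

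Genes of eIF2B, the exchange factor that phosphorylated eIF2 blocks, did not move as a block. In wild type eif2b3 fell by 0.35 ± 0.07, eif2b1 by 0.21 ± 0.06 and eif2b5 by 0.18 ± 0.05. The gene eif2b4 rose by 0.21 ± 0.07 in wild type (limma adjusted p = 0.0359), a call lost with scaling to recovered reads (adjusted p = 0.13) and when normoxia replicate 2 or 3 or hypoxia replicate 1 or 3 of wild type was left out. In the knockout eif2b3 fell by 0.28 ± 0.07 and eif2b4 rose by 0.33 ± 0.07. The gene eif2b2 stood at 0.02 ± 0.06 and 0.03 ± 0.06. The falls of eif2b1 and eif2b5 in wild type were lost when normoxia replicate 2 or 3 was left out. That of eif2b1 was also lost when hypoxia replicate 2 or 3 was omitted, and that of eif2b5 when hypoxia replicate 1 was. The gene eif2d, whose product can deliver tRNA without eIF2, fell by 0.35 ± 0.09 in wild type and by 0.27 ± 0.09 in the knockout. The knockout call was lost with no filter (adjusted p = 0.0516). It was also lost when knockout normoxia replicate 1 or 3 or knockout hypoxia replicate 3 was left out. The gene eif2a, for a separate tRNA-binding factor, stood at 0.08 ± 0.09 and 0.20 ± 0.09 and passed in neither. Interactions of genotype and oxygen did not pass for eif2b1 and eif2b5 (limma adjusted p = 0.218 and 0.54). Of the 9 genes of eIF2, eIF2B, eIF2A and eIF2D, 2 fell in the knockout as deposited, where 22.2% of all genes did. With TPM scaling or scaling to recovered reads, 5 did. Over all genes, rises were 2787 of 10026 and 3039 of 10008 calls under those scalings.

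Genes grouped here as start-codon factors fell where they changed. The group includes eif1ad, which was placed there for its eIF1A domain. In wild type 4 of 7 fell and 0 rose (unadjusted, 5 and 0, and by voom, 6 and 0). Over all genes 19.2% fell and 16.8% rose there, and by voom 2892 of 8258 called genes rose. In the knockout 3 fell and 0 rose (unadjusted, 3 and 0, and by voom, 5 and 0). Over all genes 22.2% fell and 21.8% rose there, and by voom 3082 of 10240 called genes rose. Shares of all genes at unadjusted p were not computed. The gene eif1axa, for a paralog of eIF1A that helps scan to the start codon, measured 19.7, 19.0 and 20.4 FPKM in wild-type normoxia and 12.3, 12.8 and 13.1 FPKM in wild-type hypoxia. The fall was 0.59 ± 0.06 (limma adjusted p = 1.39e-05), beside 0.44 ± 0.06 for the knockout (adjusted p = 9.95e-05). A gene on the opposite strand covers eif1axa at a mean of 2.37 FPKM (0.355 to 4.34 FPKM across libraries), and the kit does not keep strand. Over the 60 genes, 17 overlap another listed gene, 7 of them on the opposite strand. The gene eif5, for the GTPase activator of eIF2, fell by 0.42 ± 0.05 and 0.29 ± 0.05. The gene eif5b, for the factor that joins the ribosomal subunits, fell by 0.25 ± 0.05 and 0.24 ± 0.05. It overlaps ARHGEF7 by 818 bases on the same strand. The paralog eif1axb fell by 0.33 ± 0.06 in wild type and stood at -0.11 ± 0.06 in the knockout. Its interaction of genotype and oxygen did not pass (limma adjusted p = 0.094). The gene eif1b stood at -0.16 ± 0.08 and -0.13 ± 0.08. The gene eif1 stood at -0.12 ± 0.06 and 0.09 ± 0.06, and eif1ad at 0.0009 ± 0.09 and 0.15 ± 0.09, with neither called.

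The most abundant gene of all, eif5a, did not pass in hypoxia, while its paralog eif5a2 fell. Their products carry hypusine and help ribosomes past difficult peptide bonds. The gene eif5a measured 391, 370 and 408 FPKM in wild-type normoxia and 453, 418 and 389 FPKM in wild-type hypoxia, which overlapped (limma adjusted p = 0.202). The gene eif5a2 measured 116, 108 and 117 FPKM in wild-type normoxia and 86.2, 81.9 and 77.5 FPKM in wild-type hypoxia. It fell by 0.47 ± 0.05 (adjusted p = 2.98e-05), and by 0.36 ± 0.05 in the knockout (adjusted p = 0.000156). Its share of the pair was 22.5% ± 0.297 in wild-type normoxia and 16.3% ± 0.321 in wild-type hypoxia. The gene eif6, whose product keeps the large subunit from joining too soon, fell by 0.28 ± 0.10 in wild type (adjusted p = 0.0366), a call lost under 8 alternatives, among them the omission of any wild-type normoxia library or of wild-type hypoxia replicate 2 or 3. The gene eif4enif1, whose product carries eIF4E into the nucleus, stood at 0.19 ± 0.08 and -0.13 ± 0.08 and passed in neither genotype. In the knockout it was called lower with TPM scaling, scaling to recovered reads and voom.

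Of 10 pairs of paralogs told apart by a final letter, both members were called in the same direction in 4 in wild type and in 3 in the knockout. In both genotypes 2 pairs were called in opposite directions, eif4a1a with eif4a1b and eif4g2a with eif4g2b. Of all single genes, 36% were called in wild type and 44% in the knockout. Counts over other paralog pairs were not made, so neither split is shown to be particular to these factors. The mean levels of the members of a pair differed by 1.05-fold for eif4g3a and eif4g3b to 94.5-fold for eif3ba and eif3bb. How reads matching both copies were counted is not given in the sources used here.

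Several tissue and cell state markers moved with hypoxia beside these changes. Their counts are to be read against the 36% of all genes called in wild type and the 44% called in the knockout. All 13 proliferation markers fell in wild type and in the knockout, with summed levels of 519 to 563 FPKM in wild-type normoxia and 235 to 262 FPKM in wild-type hypoxia. In the knockout those sums were 442 to 474 and 189 to 200 FPKM. Of 11 matched exocrine pancreas markers, 10 fell in wild type and 9 in the knockout. Skeletal muscle markers rose, 8 of 10 in wild type and 10 of 10 in the knockout. Erythroid markers rose, 8 of 10 in wild type and 6 of 10 in the knockout, and photoreceptor markers fell, 6 of 6 and 5 of 6. Of 6 epidermis markers, 5 rose in both genotypes, and 1 fell in wild type. Of 6 neuron markers, 3 rose and 0 fell in wild type, and 2 rose and 2 fell in the knockout. Of 6 liver markers, 2 rose and 1 fell in wild type, and 2 rose and 2 fell in the knockout. The part of these shifts in the changes of the initiation factors was not tested.

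The knockout was compared with wild type at each oxygen level. The sample titles name the genotype but not the parentage of the larvae. Loss of Gcn2 and other differences between the stocks cannot be told apart. In normoxia only 4 of the 59 genes differed, against 16.7% of all genes. A single gene was higher (7.63% of all genes) and 3 were lower (9.11%). In hypoxia 11 differed, against 33.1% of all genes, with 6 higher (17% of all genes) and 5 lower (16.2%). The 5 lower genes became 8 without wild-type hypoxia replicate 3. With a filter at FPKM of at least 5, 22.4% of all genes differed in normoxia and 42.5% in hypoxia, beside 6 and 13 of these factors. At unadjusted p under 0.05 the counts were 4 higher and 16 lower in normoxia and 9 higher and 9 lower in hypoxia. The share of all genes at that threshold was not computed, so those counts are not shown to be particular to these factors. The normoxia count was 12 when the 2 compared groups were fitted alone, and the hypoxia count was 18 with TPM scaling (6 higher and 12 lower) and 20 with quantile normalization (4 and 16). The groups fitted alone gave 4609 calls over all genes in normoxia. In hypoxia 2826 of 7072 calls over all genes were higher with TPM scaling and 3394 of 7268 with quantile normalization. In normoxia, scaling to recovered reads gave 4 higher and 2 lower, beside 2144 higher of 3582 called over all genes. The normoxia count was 2 without wild-type normoxia replicate 1 or 3, 7 without wild-type normoxia replicate 2 or knockout hypoxia replicate 1, and 9 without wild-type hypoxia replicate 1 or 3.

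**Figure D5:**
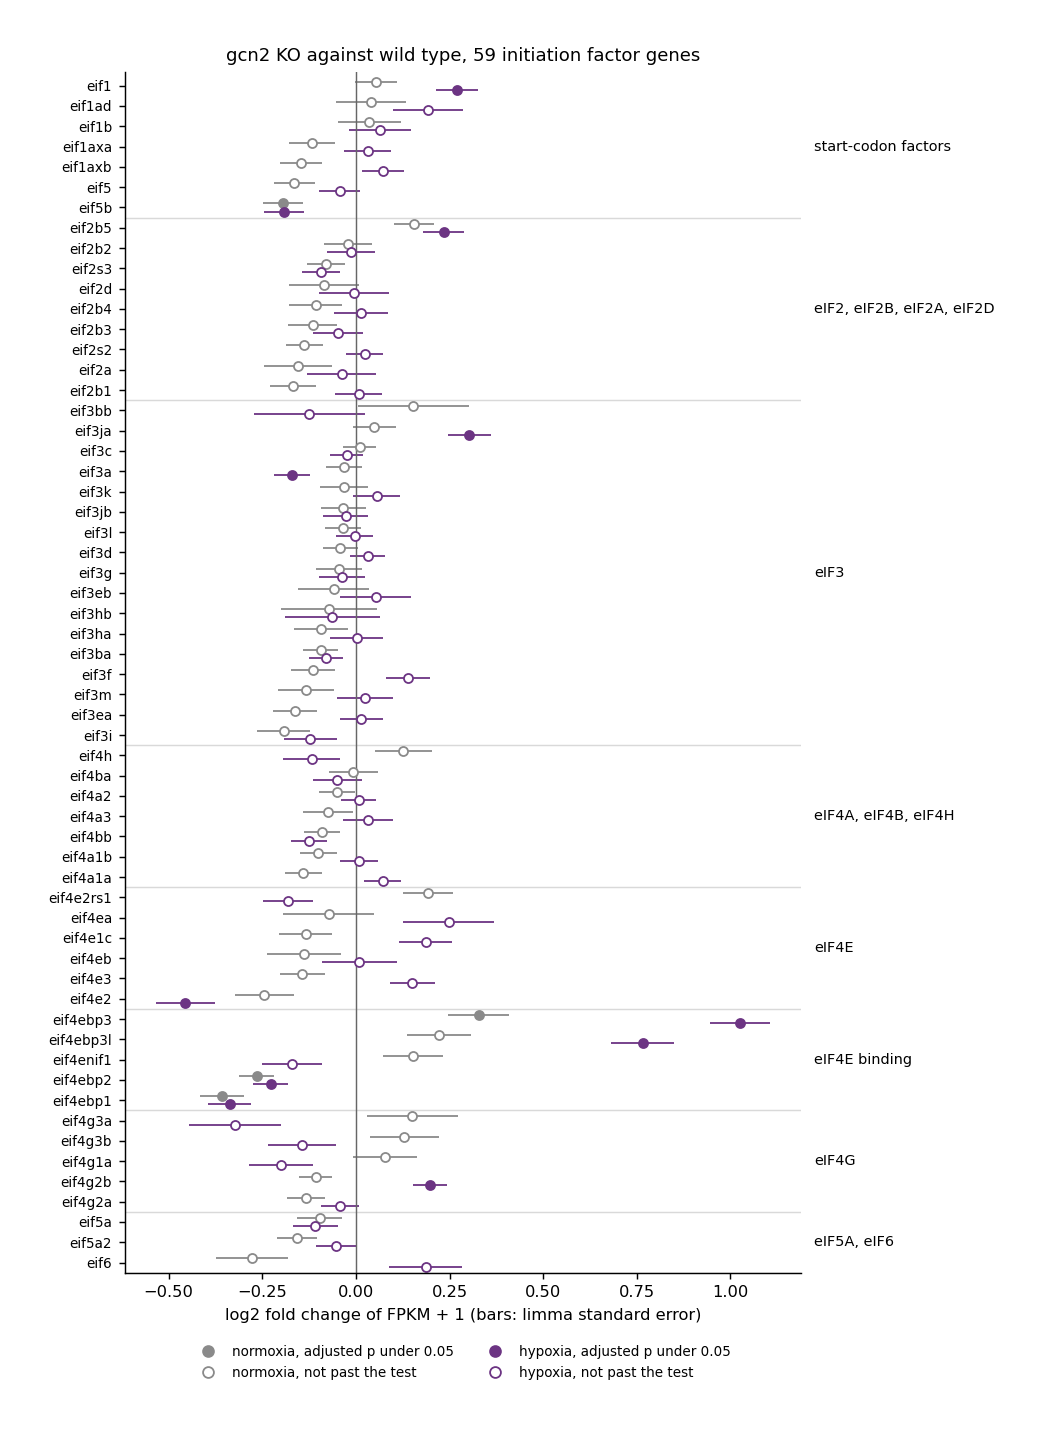
Log2 fold change (gcn2 knockout against wild type, log2 of FPKM + 1) of 59 initiation factor genes in normoxia (grey) and hypoxia (purple). Points are limma estimates, bars are standard errors, and filled points passed adjusted p under 0.05; most points lie near 0, and in the eIF4E binding group 3 of 5 points are filled in normoxia and 4 of 5 in hypoxia.

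Of the eIF4E binding genes, 3 of 5 were among the 4 called in normoxia and 4 of 5 among the 11 called in hypoxia. Both eif4ebp1 and eif4ebp2 were lower in the knockout at both oxygen levels. In normoxia eif4ebp1 measured 49.7, 48.7 and 48.7 FPKM in the knockout, all below the wild-type libraries at 60.2 to 65.1 FPKM. In hypoxia it measured 47.6, 46.0 and 45.5 FPKM in the knockout against 53.9 to 63.9 FPKM in wild type, again without overlap. The log2 fold changes were -0.36 ± 0.06 (limma adjusted p = 0.00147) and -0.34 ± 0.06 (adjusted p = 0.000968).

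The gene eif4ebp2 measured 72.9, 73.9 and 71.7 FPKM in knockout normoxia against 83.8 to 90.7 FPKM in wild type. In hypoxia it measured 86.2, 83.1 and 81.6 FPKM against 96.0 to 102 FPKM. The groups did not overlap, and the log2 fold changes were -0.27 ± 0.05 (limma adjusted p = 0.00217) and -0.23 ± 0.05 (adjusted p = 0.00265). These calls of eif4ebp1 and eif4ebp2 held under every alternative tried.

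The eif4ebp3 genes went the other way. In normoxia eif4ebp3 was higher in the knockout by 0.33 ± 0.08 (limma adjusted p = 0.0159), a call that ended, at adjusted p up to 0.0678, when wild-type normoxia replicate 1 or 3 or knockout normoxia replicate 3 was left out. The gene eif4ebp3l stood at 0.22 ± 0.08 in normoxia (adjusted p = 0.0922). In hypoxia both were higher in the knockout, eif4ebp3 by 1.03 ± 0.08 (adjusted p = 3.15e-06) and eif4ebp3l by 0.77 ± 0.08 (adjusted p = 3.85e-05). Together they made up 20.5% ± 1.12 of the summed binding protein FPKM in wild-type normoxia, 27.8% ± 0.773 in knockout normoxia, 36.5% ± 0.554 in wild-type hypoxia and 55.5% ± 2.61 in knockout hypoxia (SD, n = 3). The summed level of all 4 was lower in knockout normoxia than in wild-type normoxia, at 169 ± 0.123 against 190 ± 0.408 FPKM. In hypoxia it was higher in the knockout, at 293 ± 24.5 against 248 ± 10.8 FPKM.

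The genotypes also differed in genes outside the binding proteins. In normoxia eif5b was lower by 0.20 ± 0.05 (limma adjusted p = 0.0264), a call lost under 7 alternatives. Among them were scaling to recovered reads (adjusted p = 0.105) and omitting wild-type normoxia replicate 1 or 3 or knockout normoxia replicate 1 or 2. In hypoxia eif5b was lower by 0.19 ± 0.05 (adjusted p = 0.0159). That call was lost when knockout hypoxia replicate 1 was omitted and when only the compared groups were fitted (adjusted p = 0.0701). The largest of the other differences was in eif4e2, which measured 9.51, 10.3 and 10.3 FPKM in wild-type hypoxia and 6.86, 7.49 and 6.79 FPKM in knockout hypoxia. It was lower by 0.46 ± 0.08 (adjusted p = 0.000943) without overlap. In normoxia eif4e2 stood at -0.25 ± 0.08 (limma adjusted p = 0.051), and its interaction of genotype and oxygen did not pass (adjusted p = 0.242). The gene eif3a was lower by 0.17 ± 0.05 (adjusted p = 0.0163). That call ended when hypoxia replicate 2 of either genotype was left out and when only the compared groups were fitted (adjusted p = 0.0782).

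Higher in the hypoxic knockout were eif3ja, eif1, eif2b5 and eif4g2b. The gene eif3ja, for the same loosely held eIF3 subunit as eif3jb, measured 14.9, 13.3 and 13.5 FPKM in wild type and 17.9, 17.3 and 17.0 FPKM in the knockout. It was higher by 0.30 ± 0.06 (limma adjusted p = 0.00174), while eif3jb stood at -0.03 ± 0.06. The start-codon fidelity gene eif1 measured 165, 182 and 161 FPKM in wild type and 215, 202 and 196 FPKM in the knockout. It was higher by 0.27 ± 0.06 (adjusted p = 0.00285). The catalytic eIF2B subunit gene eif2b5 was higher by 0.23 ± 0.05 (adjusted p = 0.00584) and eif4g2b by 0.20 ± 0.05 (adjusted p = 0.00541). In normoxia eif2b5 stood at 0.15 ± 0.05 (limma adjusted p = 0.0701), and its interaction did not pass (adjusted p = 0.54). With quantile normalization the calls of eif1 and eif4g2b were lost, at adjusted p = 0.183 and 0.0656.

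Exocrine pancreas markers differed between the genotypes in the same comparisons, with 9 of 11 higher in the knockout in normoxia and 10 of 11 in hypoxia. Over all genes 16.7% were called in normoxia and 33.1% in hypoxia. Their summed level was 367 to 580 FPKM in wild-type and 742 to 1075 FPKM in knockout normoxia, and 130 to 238 against 340 to 420 FPKM in hypoxia. The exocrine marker ela2l was lower in normoxia, by 1.07 ± 0.30 (limma adjusted p = 0.0265). Of 10 erythroid markers, 4 were lower and 1 (slc4a1a) higher in normoxia, and 6 were lower in hypoxia. Of 13 proliferation markers, 8 were lower and 1 (rrm2) higher in normoxia, and 12 were lower in hypoxia. These 3 exceptions were named after their values were seen. Of 10 skeletal muscle markers, 8 were lower in normoxia, and 5 were lower and 1 higher in hypoxia. Of 6 photoreceptor markers, 0 were called in normoxia and 4 were higher in hypoxia. Of 6 epidermis markers, 1 was higher and 2 lower in normoxia, and 1 higher and 3 lower in hypoxia. The 6 neuron markers gave 1 higher in normoxia, and 2 higher and 2 lower in hypoxia. The 6 liver markers gave 1 higher and 2 lower in normoxia, and 2 higher and 1 lower in hypoxia. The part of all these markers in the differences above was not tested.

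The interaction of genotype and oxygen asked whether the hypoxic change itself differed. It passed for 5 of the 59 genes (8.5%), below the 9.25% of all genes, with 4 higher (4.74% of all genes) and 1 lower (4.5%). With a filter at FPKM of at least 5, 17.4% of all genes passed, beside 8 of these factors. The hypoxic rise was larger in the knockout for eif4ebp3, by 0.70 ± 0.11 (limma adjusted p = 0.00928), and for eif4ebp3l, by 0.54 ± 0.12 (adjusted p = 0.0217). It was also larger for eif4g2b, by 0.30 ± 0.06 (adjusted p = 0.0188). For eif4e2rs1 the hypoxic change was lower in the knockout by 0.37 ± 0.09 (adjusted p = 0.0301). For eif4e3 it was higher by 0.29 ± 0.09 (adjusted p = 0.0498).

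Of these, eif4ebp3 held under every alternative tried, with adjusted p up to 0.0269. The call of eif4ebp3l was lost with quantile normalization and when wild-type normoxia replicate 1 was left out, at adjusted p = 0.0562 and 0.0589. That of eif4g2b was lost with quantile normalization (adjusted p = 0.134) and when wild-type normoxia replicate 1 or knockout normoxia replicate 3 was omitted. The calls of eif4e2rs1 and eif4e3 were lost on leaving out any of 7 and any of 9 single libraries. With quantile normalization the split of interactions was 1 higher and 7 lower, and with voom 4 and 6. Over all genes, 658 of 1724 and 843 of 2880 called interactions were higher under these settings. The interaction count of 5 became 1 without wild-type normoxia replicate 1, 2 without knockout normoxia replicate 3, and it rose to 10 on omitting wild-type hypoxia replicate 1. It became 3 without wild-type normoxia replicate 3, knockout normoxia replicate 1, wild-type hypoxia replicate 2 or knockout hypoxia replicate 2. Because 54 genes did not pass, a difference in their hypoxic response was not shown, nor was its absence.

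Genes that act with these factors were counted in lists chosen with earlier results of the same libraries known, so they are no independent evidence of direction. Their counts are to be read against the 36% of all genes called in wild-type hypoxia and the 44% called in the knockout. Of 18 partners and regulators of eIF4F, 9 rose and 4 fell in wild-type hypoxia, and 9 rose and 3 fell in the knockout. The largest change was in mknk2b, for a kinase of eIF4E, which rose from 18.1 ± 1.01 to 71.3 ± 3.13 FPKM in wild type and from 18.1 ± 1.11 to 109 ± 17.3 FPKM in the knockout. Its paralog mknk2a rose by 1.04 ± 0.10 in wild type. The gene larp1, whose product represses ribosomal protein messengers when mTORC1 is low, fell by 1.06 ± 0.10 in the knockout and by 0.45 ± 0.10 in wild type.

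Of 18 genes of mTORC1 and its regulators, 8 rose and 2 fell in wild-type hypoxia, and 7 rose and 2 fell in the knockout, where 9 of 18 is close to the share of all genes called. The inhibitor gene ddit4 rose by 2.46 ± 0.11 on the log2 scale in wild type, to a mean of 49.8 FPKM, and by 2.96 ± 0.11 in the knockout, to 82.3 FPKM. The mTORC1 substrate and inhibitor gene akt1s1 rose by 1.38 ± 0.08 in wild type and by 1.49 ± 0.08 in the knockout.

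Among 11 partners of the eIF2 cycle, 3 rose and 5 fell in wild-type hypoxia, and 5 rose and 3 fell in the knockout. The phosphatase subunit gene ppp1r15a, whose product directs removal of phosphate from eIF2 alpha, rose from 18.4 ± 0.683 to 62.9 ± 2.11 FPKM in wild type. The largest genotype difference of this list was in bzw1b, for a protein that mimics eIF5. It measured 27.6 ± 2.37 and 27.3 ± 0.836 FPKM in wild-type and knockout normoxia, 30.3 ± 1.06 FPKM in wild-type hypoxia and 74.0 ± 10.6 FPKM in knockout hypoxia (SD, n = 3). Its interaction was 1.26 ± 0.13 (limma adjusted p = 0.000749), beside 0.63 ± 0.11 for bzw2. In this list 6 of 11 interactions passed, all of them positive, where 9.25% of all genes passed and 4.74% passed with a positive sign. The interactions of this list were not checked under other scalings. Over all genes, 1019 of 1986 called interactions were positive as deposited and 429 of 2149 with TPM scaling. The gene abcf1, whose product binds eIF2, fell by 0.88 ± 0.05 in wild type and by 0.61 ± 0.05 in the knockout.

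Later steps of translation moved unevenly. Of 15 elongation factor genes tested, 7 rose and 3 fell in wild-type hypoxia, and 8 rose and 3 fell in the knockout. The kinase gene eef2k, whose product halts elongation by phosphorylating eEF2, rose from 37.8 ± 1.73 to 137 ± 6.40 FPKM in wild type, and to 169 ± 10.5 FPKM in the knockout. Of 6 termination factor genes, 4 fell in wild type and 2 in the knockout, where 1 rose; etf1b, for the release factor eRF1, fell by 0.61 ± 0.05 in wild type. The mitochondrial initiation factor genes mtif2 and mtif3 fell in both genotypes, by 0.49 ± 0.08 and 0.41 ± 0.10 in wild type. Of the 3 tested partners of eIF5A and eIF6, 1 fell and 0 rose in each genotype. The fall was in dhps, for an enzyme of hypusine synthesis. It was 0.34 ± 0.09 in wild type and 0.27 ± 0.09 in the knockout.

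Between the genotypes the lists gave these counts. They are to be read against the 16.7% of all genes called in normoxia and the 33.1% called in hypoxia. In normoxia the knockout was higher for 1 and lower for 3 of the 18 eIF4F partners, lower for 3 of the 11 eIF2 cycle partners and higher for 1 of the 18 mTORC1 genes. In hypoxia it was higher for 2 and lower for 7 of the eIF4F partners, higher for 5 and lower for 1 of the eIF2 cycle partners, and higher for 4 and lower for 3 of the mTORC1 genes. Of the 15 elongation genes, 2 were higher and 1 lower in normoxia, and 5 higher and 2 lower in hypoxia.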

How the data were processed

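Per the labels' protocols, poly(A) RNA was sequenced from whole larvae with a kit that does not keep strand. The submitters' processing notes name HISAT2 2.2.1, fastp, featureCounts 2.0.6 and the build GRCz11. The authors deposited FPKM values for 35004 genes in 12 libraries, and their scaling is not given in the sources used here. FPKM times gene length came in whole steps for 100% of values (within 0.05 of a step), which gave recovered reads. Genes with FPKM of at least 1 in 3 of 12 libraries (21480) were fitted as log2(FPKM + 1) with limma 3.58.1 in R 4.3.3, a mean for each group, a variance trend and Benjamini-Hochberg adjustment over all of them, with a threshold of 0.05. Named genes were the 8 called members with the largest change in each contrast, the called interactions and representatives of each role. Members and lists were chosen with earlier results of these data known. No pairing of the libraries by replicate number was seen over all genes, and the main fit used none. Alternatives were other pseudocounts, filters and scalings, voom, a replicate block and each library left out. The fit was run on simulated data whose libraries were scaled to their depth, so that run cannot test how scaling moves the results. Tables and figures used Python 3.11.15, pandas 2.3.3, numpy 2.4.6 and matplotlib 3.10.9.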

Additional observations from a re-analysis of the deposited data

Results flagged for a closer look

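The hypoxic change differed between the genotypes by the interaction test of limma for 5 of the 59 genes, a share (8.5%) below the 9.25% of all genes. Values are in log2 units of the knockout change minus the wild-type change. The genes were eif4ebp3 at 0.70 (adjusted p = 0.00928), eif4ebp3l at 0.54 (adjusted p = 0.0217) and eif4g2b at 0.30 (adjusted p = 0.0188). The other two were eif4e3 at 0.29 (adjusted p = 0.0498) and eif4e2rs1 at -0.37 (adjusted p = 0.0301). The calls of eif4e3 and eif4e2rs1 were lost under 16 and 7 of the alternatives tried, and those of eif4g2b and eif4ebp3l under 4 and 2.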

How the results depend on the processing

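Of the calls among the 59 genes, 27 of 41 for hypoxia in wild type, 28 of 39 for hypoxia in the knockout, 2 of 4 for the knockout in normoxia, 7 of 11 for the knockout in hypoxia and 1 of 5 interactions held under every alternative. Alternatives also added calls without a change of sign, counted over all comparisons. There were 23 with TPM scaling, 23 with quantile normalization, 19 with scaling to recovered reads and 24 with voom. Scaling moved the balance of directions. For hypoxia in wild type, 18 higher and 23 lower became 11 and 28 with scaling to recovered reads, an alternative chosen after seeing the data, 10 and 27 with voom, and 11 and 23 with only the groups compared. Over all genes, 3598 higher of 7723 called became 2686 of 7893, 2892 of 8258 and 3007 of 6630 in that order. For hypoxia in the knockout, 20 and 19 became 16 and 28 with scaling to recovered reads, 15 and 27 with voom, 13 and 28 with TPM scaling, and 13 and 27 with quantile normalization. Over all genes, 4684 higher of 9451 called became 3039 of 10008, 3082 of 10240, 2787 of 10026 and 4536 of 9448 in that order. For the knockout in normoxia, 1 and 3 became 4 and 2 with TPM scaling, scaling to recovered reads and voom, 7 in all (4 and 3) with quantile normalization and 12 in all (3 and 9) with only the groups compared. Over all genes, 1638 higher of 3595 called became 2145 of 3397, 2144 of 3582 and 2794 of 4436 in that order. Quantile normalization gave 1684 of 3507 and the compared groups alone 2107 of 4609. For the knockout in hypoxia, 11 (6 and 5) became 18 (6 and 12) with TPM scaling, 20 (4 and 16) with quantile normalization and 6 and 8 with voom. Over all genes, 3641 higher of 7111 called became 2826 of 7072, 3394 of 7268 and 3597 of 7458 in that order. The 5 interactions (4 and 1) became 8 (7 and 1) with a filter at FPKM of at least 5, 8 (1 and 7) with quantile normalization, 10 (4 and 6) with voom and 2 and 2 with TPM scaling. Over all genes, 1019 higher of 1986 called became 1196 of 2081, 658 of 1724, 843 of 2880 and 429 of 2149 in that order. The fit of only the groups compared has no interaction. In the knockout, the median change of all genes in hypoxia moved to -0.12 with TPM scaling, -0.11 with scaling to recovered reads and -0.14 with voom. Quantile normalization reversed 7 values, each called under it or in the main fit. These were eif1 (-0.15), eif3a (-0.0068), eif3ba (-0.11) and eif5a (-0.13) for hypoxia in the knockout, eif3ea (-0.14) for the knockout in hypoxia, and eif3ba (-0.20) and eif3l (-0.19) for the interaction; the cause was not tested. Leaving out each library in turn gave 31 to 41 calls for hypoxia in wild type, 35 to 41 in the knockout, 2 to 9 for the knockout in normoxia, 10 to 14 in hypoxia and 1 to 10 interactions. Without a library its group holds 2.

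Replicate numbers were shared by the groups. Over 18 pairs of same-numbered libraries the correlation of residuals ran from -0.087 to 0.119, and 1 pair was above 0.1. No pairing by number was seen over all genes, which cannot exclude pairing that touches a part of them. With the replicate block the counts were 41, 37, 5, 13 and 5, in the order above. Genes at low counts, such as eif3bb at 38 reads or more in wild-type normoxia, are limited by depth.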
